A study of Mus musculus with 39 samples.

Results

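The mouse zinc finger genes Zfp900 to Zfp999 were examined in CUT&Tag peak lists of 4 histone marks. The members were taken by name: protein-coding genes of the mm10 (GRCm38) assembly, as annotated in GENCODE vM21, whose symbol is Zfp9 followed by 2 more digits. There were 63 such genes among 21853 protein-coding genes, and another 302 genes carry the name Zfp with a different number. The cells were naive extra-embryonic endoderm (nEnd), a culture that resembles the early primitive endoderm of the blastocyst, made from a mouse line in which OCT4 protein carries an mCherry reporter. The cells received no treatment, were kept on fibroblast feeders in RACL medium (RPMI with Activin A, CHIR99021 and LIF) according to the study's culture methods, and were separated by FACS into OCT4-mCherry single positive cells (Oct4+), cells positive for both OCT4-mCherry and PDGFRA-APC (DP), and PDGFRA-APC single positive cells (Pdgfra+). Each of H3K4me1, H3K27ac, H3K27me3 and H3K9me3 was profiled in 3 libraries of each population, 36 libraries in all. All libraries came from this reporter line. The study's methods call the replicates biological, whereas the labels name no separate cultures or sorts, so the p-values measure the spread between these libraries, whatever its source.

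Zinc finger genes of this kind encode DNA-binding proteins built of tandem fingers that are read from a long last exon. Many carry a KRAB domain, which recruits TRIM28 and the H3K9 methyltransferase SETDB1 to the DNA the fingers bind, often at retrotransposons. The genes arose by repeated local duplication and lie in clusters, and their own finger-coding 3' exons are known places of H3K9me3, the mark of compact, silent chromatin. H3K27ac marks active promoters and enhancers, H3K4me1 marks enhancers, and H3K27me3 marks Polycomb-repressed promoters.

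The repeated fingers are visible in the DNA. The stretches below, read from the RefSeq genome sequence of GRCm38.p6 on the coding strand, are shown because H3K9me3 over these exons is the main measurement here. Each is a 168-base stretch from the coding part of the 3' exon, the first among those with most matches to the zinc finger linker motif, part of the code for the short link between fingers with 2 bases left free, and the matches are in capitals. The first 3 genes carried H3K9me3 over this exon in all 6 DP and Pdgfra+ libraries and in no Oct4+ library, and Zfp968 had no listed peak of any mark. The stretches lie at chr9:88569347-88569514, chr8:69228041-69228208, chr4:147583471-147583638 and chr2:175382192-175382359, all on the plus strand.
Zfp949: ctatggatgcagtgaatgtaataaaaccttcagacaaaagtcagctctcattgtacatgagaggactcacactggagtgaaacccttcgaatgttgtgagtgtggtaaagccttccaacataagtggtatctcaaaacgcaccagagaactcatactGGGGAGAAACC
Zfp930: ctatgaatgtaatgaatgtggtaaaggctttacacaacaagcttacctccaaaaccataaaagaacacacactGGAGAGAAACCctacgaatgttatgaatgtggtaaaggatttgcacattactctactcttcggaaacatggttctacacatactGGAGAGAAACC
Zfp985: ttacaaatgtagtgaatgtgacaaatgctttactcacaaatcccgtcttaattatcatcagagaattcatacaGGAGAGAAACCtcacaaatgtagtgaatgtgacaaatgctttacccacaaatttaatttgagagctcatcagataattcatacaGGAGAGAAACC
Zfp968: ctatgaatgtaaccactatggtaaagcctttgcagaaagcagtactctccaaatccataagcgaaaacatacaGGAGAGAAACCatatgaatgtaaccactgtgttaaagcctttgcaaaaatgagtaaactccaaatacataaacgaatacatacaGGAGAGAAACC
On either strand, the motif occurred in the 3' exon of 60 of 63 members (95.2%) and of 3.73% of all protein-coding genes. A member held a median of 8 matches, with a range of 0 to 18. A search of the translated coding sequence for zinc finger spacing found a median of 11 fingers per member, and 0 in Zfp935, Zfp957 and Zfp972. The 3' exon held a median of 87.0% of a member's coding sequence, but 3.26% of that of Zfp941. The Zfp949 stretch lay wholly under an H3K9me3 peak in 3 DP and 3 Pdgfra+ libraries, the Zfp930 stretch in 2 and 3, and the Zfp985 stretch in 1 and 1, where peaks covered other parts of the exon in the remaining libraries.

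Promoters of 3 members, the 250 bases before the RefSeq start in GRCm38.p6 with CG in capitals, are shown because they stand for the 3 promoter states described further on. They lie at chr17:21566728-21566977, chr4:147492167-147492416 and chr2:175372186-175372435, all on the plus strand. Zfp948 carried H3K27ac in every library, Zfp982 carried both H3K27ac and H3K9me3, and Zfp968 carried neither.
Zfp948: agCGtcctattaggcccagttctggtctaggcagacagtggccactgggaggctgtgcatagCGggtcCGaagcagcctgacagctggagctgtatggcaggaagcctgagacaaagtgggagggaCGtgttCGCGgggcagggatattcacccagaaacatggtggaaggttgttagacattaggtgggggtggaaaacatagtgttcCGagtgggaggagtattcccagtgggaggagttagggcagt
Zfp982: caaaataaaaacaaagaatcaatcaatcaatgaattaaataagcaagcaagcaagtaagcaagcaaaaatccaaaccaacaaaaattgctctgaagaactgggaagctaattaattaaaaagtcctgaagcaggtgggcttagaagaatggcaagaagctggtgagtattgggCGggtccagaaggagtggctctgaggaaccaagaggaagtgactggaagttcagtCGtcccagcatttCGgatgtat
Zfp968: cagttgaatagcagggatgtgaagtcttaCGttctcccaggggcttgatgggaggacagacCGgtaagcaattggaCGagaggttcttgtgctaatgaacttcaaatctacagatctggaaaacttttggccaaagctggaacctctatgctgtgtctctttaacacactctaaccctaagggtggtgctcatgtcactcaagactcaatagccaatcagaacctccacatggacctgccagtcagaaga
RefSeq promoter entries were matched by symbol for 55 of 63 members. At least 1 CG was present in these 250 bases in 100% of member entries and in 92.1% of all entries, with a median of 6 in both.

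The lists differed in length. The shortest and longest held 5322 and 29970 peaks for H3K9me3, 3079 and 65131 for H3K27ac, 1074 and 16057 for H3K4me1, and 1143 and 8672 for H3K27me3. Sequencing depth is unknown, so a gene without a listed peak may still carry the mark. As a check of the sort, H3K27ac was called at the promoter of 5 of 6 pluripotency markers (among them Pou5f1, Nanog and Sox2) in Oct4+ cells and of 1 each in DP and Pdgfra+ cells. It was called at 2, 6 and 5 of 6 endoderm markers (among them Gata6, Gata4 and Pdgfra) in Oct4+, DP and Pdgfra+ cells, and at none of 6 fibroblast markers, which bear on the feeder layer, in any of them. The Pou5f1 promoter was not called in DP cells, although the sort selected them for OCT4-mCherry.

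H3K9me3 lay over the 3' exon of many members, and of more members in DP and Pdgfra+ cells than in Oct4+ cells. Peaks overlapped this exon in 9, 8 and 5 members in the Oct4+ libraries (replicates 1 to 3), in 21, 29 and 22 in the DP libraries, and in 31, 16 and 25 in the Pdgfra+ libraries. The highest Oct4+ library therefore lay below the lowest of the other 6. The means were 7.33 ± 2.08, 24.0 ± 4.36 and 24.0 ± 7.55 members (SD, n = 3 libraries each). DP and Pdgfra+ cells overlapped and shared the same mean. In bulk samples, fewer marked cells and less mark per cell cannot be told apart.

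**Figure D1:**
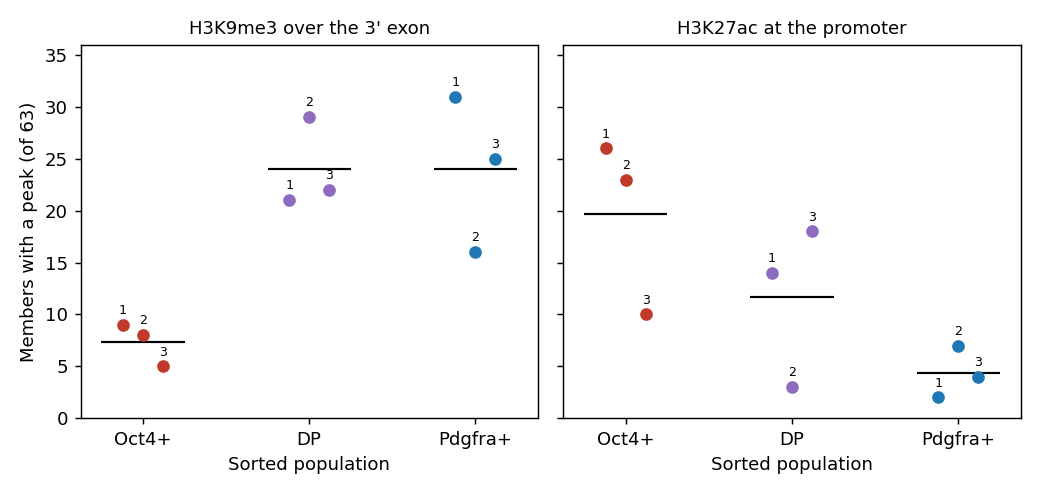
Each point is 1 library, numbered by replicate, and the vertical axis is the number of the 63 members with a peak over the 3' exon (H3K9me3, left) or at the promoter (H3K27ac, right), with the bar at the mean of 3 libraries. H3K9me3 was found at 5 to 9 members in Oct4+ libraries and at 16 to 31 in the other 6, while H3K27ac had its highest library in Oct4+ (26 members) and its lowest in Pdgfra+ (2 members).

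A member was called in a population when at least 2 of its 3 libraries held a peak over the window. H3K9me3 over the 3' exon was called in 8 members in Oct4+ cells (12.7%), against 1.85% of all protein-coding genes. In DP cells it was called in 22 members (34.9%), against 2.39%. In Pdgfra+ cells it was called in 24 members (38.1%), against 2.64%. Among the 302 other Zfp genes the calls were 4.64%, 24.2% and 28.5%, so a low share in Oct4+ cells and a higher share in DP and Pdgfra+ cells was also seen in the wider family. The members' last exons were longer than those of all genes (median 2176 against 1122 bases) and shorter than those of the other Zfp genes (2630 bases), and a longer window has more room for a peak. Among the 6387 genes with a last exon of at least 2 kb, the calls were 2.80%, 4.04% and 4.29% in Oct4+, DP and Pdgfra+ cells. The part of exon length in the members' calls was not tested. When 1 library was left out and a peak required in both of the others, the Oct4+ count was 4 without replicate 1 and 5 without replicate 2, and the Pdgfra+ count was 15 without replicate 1 and 16 without replicate 3.

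The H3K9me3 lists of Oct4+ cells were not shorter: they held 29871, 22912 and 14160 peaks, against 13676, 26981 and 12701 in DP and 29970, 5322 and 13110 in Pdgfra+ cells. Pdgfra+ replicate 2, with the shortest list, had the fewest members of its population. With each list reduced to its 5322 peaks of highest total signal, members with a peak numbered 6, 4 and 3 in Oct4+, 14, 19 and 21 in DP and 19, 16 and 23 in Pdgfra+ libraries. At equal list length, each Oct4+ library thus still lay below every DP and Pdgfra+ library. With these reduced lists, 5, 17 and 19 members were called in Oct4+, DP and Pdgfra+ cells. The shares of all genes called were 0.764%, 1.31% and 1.66%, so all genes together were also lowest in Oct4+ cells.

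A peak over the 3' exon was listed in at least 1 library for 34 members (54.0%), against 8.48% of all genes, and the members fell into groups by where they were called. All 8 members called in Oct4+ cells (Zfp936, Zfp938, Zfp951, Zfp958, Zfp978, Zfp981, Zfp988 and Zfp992) were also called in DP and Pdgfra+ cells. A further 12 were called in both DP and Pdgfra+ cells (Zfp930, Zfp932, Zfp935, Zfp937, Zfp942, Zfp943, Zfp949, Zfp950, Zfp977, Zfp982, Zfp985 and Zfp990). Zfp945 and Zfp976 were called in DP cells alone, Zfp944, Zfp948, Zfp959 and Zfp994 in Pdgfra+ cells alone, and 37 members in no population. A peak was found in a larger share of DP and Pdgfra+ libraries than of Oct4+ libraries for 30 members (5.6% of all genes), and in a smaller share for Zfp951 alone (2.43%).

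**Figure D2:**
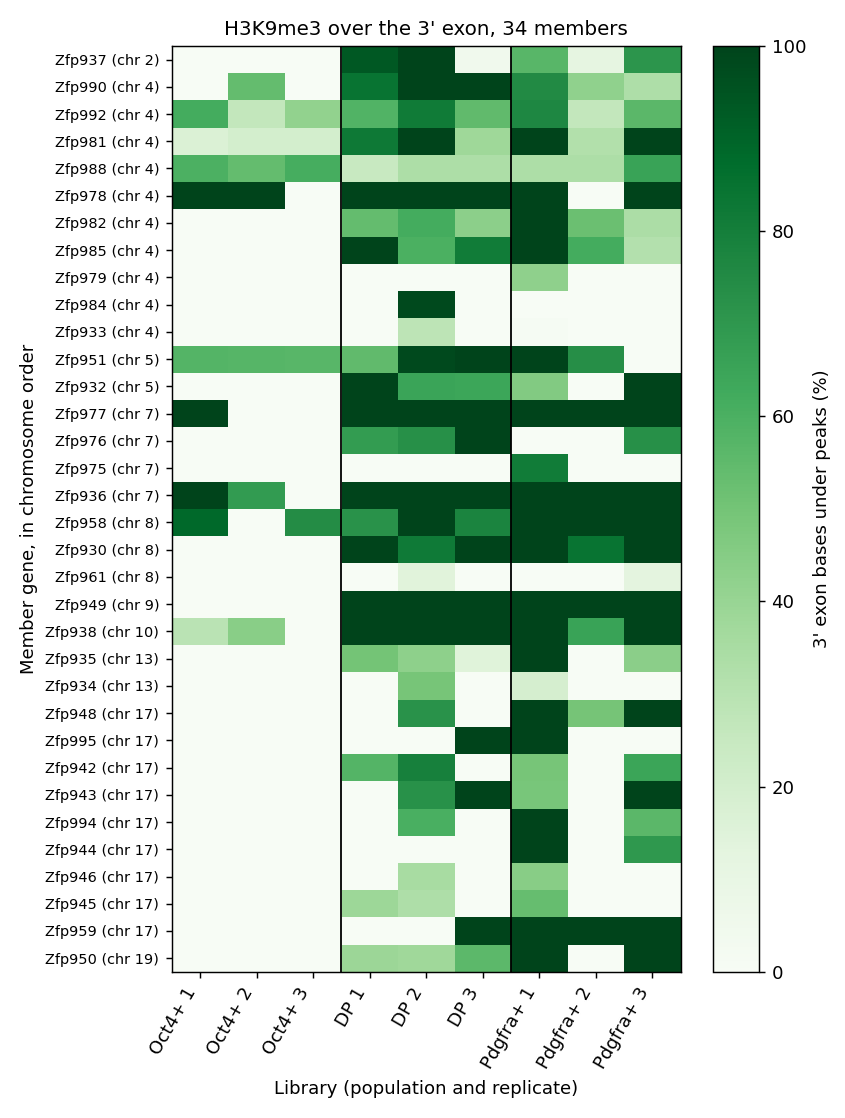
Rows are the 34 members with H3K9me3 over the 3' exon in at least 1 library, columns are the 9 libraries, and the colour gives the percent of the exon's bases under peaks. The Oct4+ columns are mostly empty, Zfp949 is fully covered in all 6 DP and Pdgfra+ libraries, and Zfp992, Zfp981 and Zfp988 are marked in all 9.

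Zfp949 (chr9:88548020-88571061, last exon from 88568614) gave the clearest pattern, with 0% of the exon covered in each Oct4+ library and 100% in each of the 6 other libraries. Zfp930 (chr8:69209038-69230536, last exon from 69227843) was at 0% in each Oct4+ library, at 100, 82.0 and 100% in DP and at 100, 84.1 and 100% in Pdgfra+ libraries. In both genes the Oct4+ libraries did not overlap the rest, and DP did not stand apart from Pdgfra+. Zfp985 (chr4:147553277-147585198) was at 0% in Oct4+, at 100, 60.1 and 81.2% in DP and at 100, 61.4 and 31.6% in Pdgfra+ libraries. Zfp982, its neighbour on chromosome 4, was at 0% in Oct4+, at 53.6, 61.6 and 43.3% in DP and at 100, 52.1 and 34% in Pdgfra+ libraries. Zfp937 on chromosome 2 was at 0% in Oct4+, at 93.6, 100 and 4.83% in DP and at 56.9, 12 and 70.7% in Pdgfra+ libraries. These 5 members were the ones with a peak in all 6 DP and Pdgfra+ libraries and none in Oct4+ cells (7.94% of members), a pattern held by 0.343% of all genes and by 8.61% of the other Zfp genes. No member had a peak in all 3 libraries of 1 population and none of the 6 others, against 0.243% of all genes for Oct4+, 0.0137% for DP and 0.101% for Pdgfra+ cells.

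Several members kept H3K9me3 over the 3' exon in Oct4+ cells. Zfp992 had 61.7, 26.5 and 41.8% of the exon covered in Oct4+, 58.4, 81.5 and 54.6% in DP and 76.4, 26.5 and 56.1% in Pdgfra+ libraries, so its populations overlapped. Zfp981 had 16.7, 19.8 and 19.8% covered in Oct4+, 82.2, 100 and 38.1% in DP and 100, 31.8 and 100% in Pdgfra+ libraries, the Oct4+ values being the lowest. Zfp988 had lower values in all 3 DP libraries than in any Oct4+ library, with 59.5, 53.6 and 61.2% in Oct4+, 24.3, 33.5 and 33.5% in DP and 33.5, 33.4 and 65.5% in Pdgfra+ libraries. These 3 members, which lie on chromosome 4, had a peak in all 9 libraries, as did 0.27% of all genes.

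Zfp936, Zfp938, Zfp951 and Zfp958 each had a peak in 8 of 9 libraries. Zfp938 (chr10:82224850-82241280) had 29.1, 44.1 and 0% covered in Oct4+, 100% in each DP library and 100, 65.3 and 100% in Pdgfra+ libraries, and the Oct4+ values lay below all others. Zfp936 was covered at 100, 68.5 and 0% in Oct4+ and at 100% in each other library. Zfp958 was covered at 88.7, 0 and 74.4% in Oct4+, 71.9, 100 and 77.5% in DP and 100% in each Pdgfra+ library. Zfp951 was covered at 57.7, 57.1 and 56.8% in Oct4+, 54.3, 98.1 and 100% in DP and 100, 73.8 and 0% in Pdgfra+ libraries. The last 3 overlapped between populations.

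The next members in that order, with a peak in 7 libraries, were Zfp977, Zfp978 and Zfp990. Zfp977 was fully covered in Oct4+ replicate 1 and in all 6 DP and Pdgfra+ libraries, and at 0% in the other Oct4+ libraries. Zfp978 was either fully covered or at 0%, the empty libraries being Oct4+ replicate 3 and Pdgfra+ replicate 2. Zfp990 had 0, 53.8 and 0% covered in Oct4+, 84.3, 100 and 100% in DP and 75.3, 41.8 and 33.0% in Pdgfra+ libraries, with DP above both others. Zfp932, a repressor of endogenous retroviruses, was at 0% in Oct4+, 100, 65.0 and 64.4% in DP and 45.8, 0 and 100% in Pdgfra+ libraries. Zfp961 had 14.3% covered in DP replicate 2 and 12.6% in Pdgfra+ replicate 3, and 0% elsewhere.

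The 3 populations were compared gene by gene with an exact permutation test of the F statistic, over 1680 assignments of the 9 libraries, across 1094 genes with a peak over the 3' exon in at least 2 libraries, 31 of them members. No gene and no member passed an adjusted p of 0.05 (0% of genes tested). At an unadjusted p under 0.05 there were 6 members of 31, against 19.1% of genes tested, a like share. The smallest unadjusted p-values among members by the exact permutation test were 0.0250 for Zfp985 and for Zfp990, 0.0321 for Zfp982 and 0.0357 for Zfp949, Zfp930 and Zfp938, all with an adjusted p of 0.195. For Zfp949, with its 2 values of 0 and 100%, tied values alone keep the p from going lower. The members under an unadjusted p of 0.05 numbered 11 without Pdgfra+ replicate 2, 4 without Oct4+ replicate 2 and 2 without Oct4+ replicate 3.

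limma's moderated F-test, the alternative, assumes a spread shared across genes and called 4 members, against 14.6% of genes tested. The adjusted p was 6.07e-08 for Zfp949, 5.26e-05 for Zfp930, 0.0149 for Zfp938 and 0.0446 for Zfp985. In each of these 4 the Oct4+ mean was the lowest: 0, 0, 24.4 and 0% of the exon covered, against 100, 94.0, 100 and 80.4% in DP and 100, 94.7, 88.4 and 64.3% in Pdgfra+ cells. Zfp990 (limma adjusted p = 0.0655), Zfp982 (0.0767), Zfp976 (0.0899) and Zfp948 (0.106) did not pass. Zfp948 was at 0% in Oct4+, at 0, 71.9 and 0% in DP and at 100, 49.6 and 100% in Pdgfra+ libraries, and Zfp976 was at 0% in Oct4+, at 68.3, 72.7 and 100% in DP and at 0, 0 and 73.0% in Pdgfra+ libraries.

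In DP and Pdgfra+ cells, H3K9me3 coverage of members was higher over the 3' exon than 8 kb upstream of it or near the gene start. Around the start of the 3' exon, the mean coverage of the 63 members in DP cells was 8.23% at the bin 8 kb upstream, 28.6% in the first 200 bases of the exon and highest at 2.7 kb, at 29.2% (24.4 to 33.1% between libraries). In Pdgfra+ cells it was 9.30%, 27.5% and 32.3% (19.0 to 41.3%) at the same places. In Oct4+ cells it was 2.31% and 4.76%, and reached its highest value, 13.1% (7.41 to 19.4%), further downstream at 6.3 kb. All genes together stayed at or under 2.57% in each population. The members' median 3' exon was 2176 bases long, so the bins at 2.7 kb lay past the end of an exon of that length. In the bin from 4000 to 4200 bases, the members' mean was still 22.4% in DP and 27.1% in Pdgfra+ cells. The coverage was thus not confined to the 3' exon. Around the gene start, no 200-base bin within 5 kb had a members' mean over 7.41%.

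**Figure D3:**
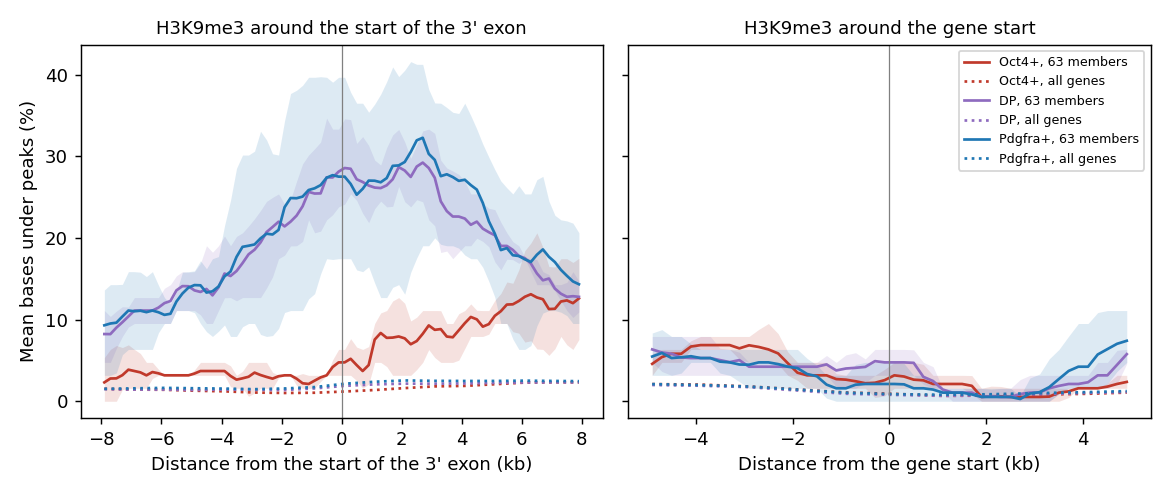
Lines give the mean percent of bases under H3K9me3 peaks in 200-base bins, by distance in kb from the start of the 3' exon (left) or of the gene (right), for the 63 members (solid, with the range of 3 libraries shaded) and all protein-coding genes (dotted, 1 bin per kb and the last bin). DP and Pdgfra+ reach 29.2% and 32.3% at 2.7 kb past the start of the 3' exon, whereas near the gene start all populations stay at or under 7.41%.

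Each listed peak also reports where its signal was highest. Over the member windows (gene body and 2 kb either side), 399 such maxima were counted in the 9 H3K9me3 lists. Where the windows of members overlap, as for Zfp934 and Zfp935, maxima and bases were counted once for each member. The coding part of the 3' exon held 9.77% of the counted maxima and 3.77% of the bases, a ratio of 2.59. The rest of that exon held 6.27% on 2.83% of the bases, a ratio of 2.22. The remaining gene body held 68.9% of the maxima on 81.5% of the bases, so most maxima still lay outside the last exon. For the coding part the ratio was 1.64 in Oct4+, 2.91 in DP and 3.04 in Pdgfra+ cells. Peaks over member 3' exons numbered 175 in the 9 lists and none reached the 3' exons of 2 members. Their median width was 3045 to 5750 bases, against 2006 to 3482 bases for all peaks of the same lists, and the median rank of their highest signal stood between the 55.7 and 92.7 percentile of its list.

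H3K9me3 at the promoter (1 kb before to 100 bases after the gene start) was rare, with a peak in at least 1 library for 7 members (11.1%), against 5.0% of all genes. It was called in 2 members in Oct4+ cells (3.17%, against 1.27% of all genes), in 3 in DP cells (4.76%, against 0.911%) and in 1 in Pdgfra+ cells (1.59%, against 0.947%), where it was 0 without replicate 1 or replicate 3. Of the members called over the 3' exon, 7 of 8, 19 of 22 and 23 of 24 were not called at the promoter. Promoter calls were also rare among all genes, as given above. The same count was not made for all genes called over the 3' exon.

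Zfp982, a gene studied for its part in the embryonic stem cell state, was the member with most promoter H3K9me3 in Oct4+ cells. Its promoter was covered by H3K9me3 at 100, 100 and 59.7% in Oct4+ libraries, at 100% in each DP library and at 0% in each Pdgfra+ library, while its 3' exon was unmarked in Oct4+ cells. Its promoter was also wholly under H3K27ac peaks in all 6 Oct4+ and DP libraries, and in Pdgfra+ replicate 2 alone of that population. In Pdgfra+ cells, then, H3K9me3 was listed at the 3' exon and not at the promoter, and in Oct4+ cells the reverse. The exact permutation p for promoter H3K9me3 was 0.0357 (adjusted p = 0.269 over 558 genes), with an adjusted p of 0.00104 by limma, which called 10% of genes tested. It was the only one of 5 members tested with an unadjusted p under 0.05 by the exact test (13.8% of genes tested), and no gene passed the adjusted p there. Promoter coverage of Zfp982 did not overlap between Pdgfra+ and the other populations.

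**Figure D4:**
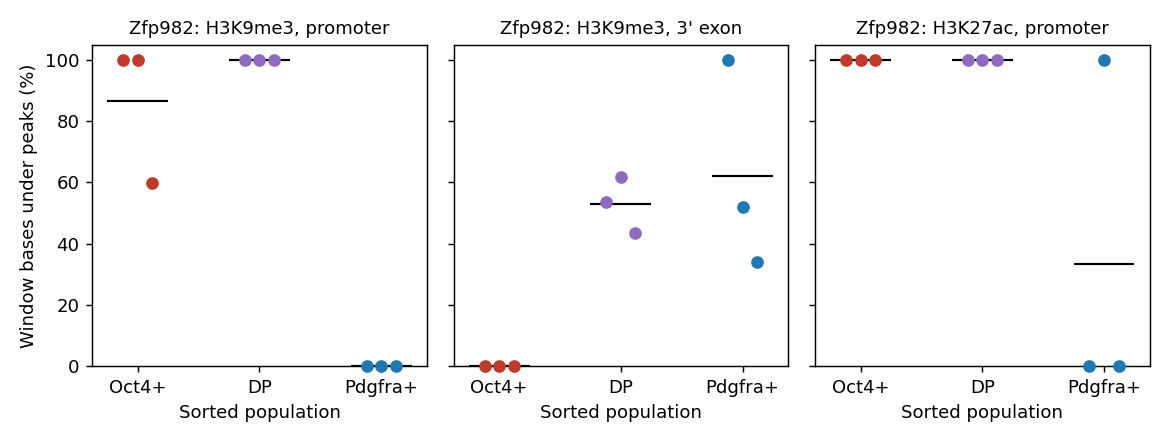
Points are libraries, bars are means of 3, and the vertical axis is the percent of the Zfp982 window under listed peaks for promoter H3K9me3 (left), 3' exon H3K9me3 (middle) and promoter H3K27ac (right). Promoter H3K9me3 falls to 0% in all 3 Pdgfra+ libraries, and the 3' exon is at 0% in all 3 Oct4+ libraries.

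The other promoters with H3K9me3 lay mostly on chromosome 4 as well. Zfp992 was covered at 0% in Oct4+, at 0, 100 and 100% in DP and at 100, 0 and 100% in Pdgfra+ libraries. Zfp988 was covered at 48.6, 17.6 and 16.8% in Oct4+, at 53.5, 49.95 and 50.4% in DP and at 78.8, 0 and 0% in Pdgfra+ libraries. Zfp981 had a promoter peak in 2 libraries (DP replicate 2 and Pdgfra+ replicate 1), as did Zfp985 (Oct4+ replicate 1 and DP replicate 2), and Zfp958 and Zfp957 each had one in 1 library. At Zfp988 each Oct4+ library was below every DP library and the Pdgfra+ libraries lay on both sides, and at Zfp992 the populations overlapped, with exact permutation p-values of 0.357 for Zfp992 and 0.425 for Zfp988 (adjusted p = 0.649 and 0.763).

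H3K27ac at member promoters went in the opposite direction. A promoter peak was listed for 26, 23 and 10 members in Oct4+, 14, 3 and 18 in DP and 2, 7 and 4 in Pdgfra+ libraries, with means of 19.7 ± 8.50, 11.7 ± 7.77 and 4.33 ± 2.52 (SD, n = 3 libraries each). Each Oct4+ library was above every Pdgfra+ library, and DP overlapped both. The calls numbered 21 (33.3%, against 31.8% of all genes), 12 (19.0%, against 30.3%) and 4 (6.35%, against 18.4%). The members' share was thus near that of all genes in Oct4+ cells and below it in the others, while the other Zfp genes stood above all genes at 44.7%, 41.4% and 22.5%. The Oct4+ count was 10 without replicate 1 or replicate 2, the DP count 3 without replicate 1 or replicate 3, and the Pdgfra+ count 2 without replicate 2 or replicate 3, with a peak in both remaining libraries. The H3K27ac lists of Pdgfra+ cells were all shorter than those of Oct4+ cells: the lists held 38619, 65131 and 8574 peaks in Oct4+, 10957, 3079 and 12244 in DP, and 4792, 7128 and 4861 in Pdgfra+ libraries.

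With each list reduced to its 3079 peaks of highest total signal, 3, 2 and 2 members were called (4.76%, 3.17% and 3.17%), against 6.03%, 10.6% and 10.8% of all genes. Counts this small cannot show whether the populations differed at equal list length. Few member promoters were among the strongest H3K27ac peaks of any library. DP replicate 2, the shortest list, held 3 members, all of which (Zfp948, Zfp961 and Zfp982) were fully or mostly covered, at 100, 67.0 and 100%.

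A promoter peak was listed in at least 1 library for 31 members (49.2%), against 52.8% of all genes. Zfp948 was fully covered by H3K27ac in all 9 libraries, and Zfp961 was covered at 59.4 to 100% in all 9, a pattern found at 6.37% of all genes. Zfp951 and Zfp958 were also called in all 3 populations, and each was at 0% in DP replicate 2 and Pdgfra+ replicate 1. A call in Oct4+ and DP but not Pdgfra+ cells was made for 7 members (Zfp930, Zfp950, Zfp960, Zfp963, Zfp977, Zfp982 and Zfp983), and in Oct4+ cells alone for 10 (Zfp933, Zfp938, Zfp942, Zfp943, Zfp959, Zfp981, Zfp984, Zfp985, Zfp988 and Zfp992). Zfp944 was called in DP cells alone, and no member in Pdgfra+ cells alone. The share of all genes with each of these patterns of calls was not counted. The promoter windows of Zfp942 and Zfp943 overlap and had H3K27ac in the same libraries, so these members may share peaks.

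Zfp977 had the smallest p among the members tested, with 100, 100 and 75.5% of the promoter covered in Oct4+, 73.8, 0 and 73.8% in DP and 0% in each Pdgfra+ library. The exact permutation p was 0.0143, and the adjusted p was 0.825 over 8882 genes, 25 of them members. Zfp963 was at 100, 100 and 64.2%, then 100, 0 and 100%, then 0% in each Pdgfra+ library. Zfp960 was at 100, 48.3 and 84.6% in Oct4+, 52.0, 0 and 78.7% in DP and 0% in each Pdgfra+ library. Zfp930 was at 46.0, 54.0 and 42.6%, then 73.9, 0 and 58.8%, then 0% in each Pdgfra+ library, and Zfp950 at 81.0, 72.7 and 90.01%, then 92.6, 0 and 78.8%, then 0, 69.8 and 0%. In all 5 the empty DP library was replicate 2. No member and no gene passed an adjusted p of 0.05 by the exact test. By unadjusted p under 0.05 there was 1 member, against 4.3% of genes tested, and limma called 0 members, against 2.15% of genes tested (3 members at an unadjusted p under 0.05).

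The marks could also be read together. Both H3K9me3 over the 3' exon and H3K27ac at the promoter were called for 6 members in Oct4+ cells (Zfp938, Zfp951, Zfp958, Zfp981, Zfp988 and Zfp992; 0.581% of all genes), for 6 in DP cells (Zfp930, Zfp950, Zfp951, Zfp958, Zfp977 and Zfp982; 0.709% of all genes) and for 3 in Pdgfra+ cells (Zfp948, Zfp951 and Zfp958; 0.517% of all genes). Members with both calls were thus 6 of the 8 with the H3K9me3 call in Oct4+ cells, 6 of 22 in DP and 3 of 24 in Pdgfra+ cells. Among all genes with that H3K9me3 call, 31.4% of 404, 29.6% of 523 and 19.6% of 578 had an H3K27ac promoter. The H3K27ac lists were shorter in DP and Pdgfra+ cells, apart from those of DP replicates 1 and 3, which were longer than that of Oct4+ replicate 3, and the part of list length in these counts was not tested. Of the H3K27ac promoters, 6 of 21, 6 of 12 and 3 of 4 belonged to members with the H3K9me3 call. Among all genes with an H3K27ac promoter, 127 of 6960, 155 of 6617 and 113 of 4013 had that call. The Pdgfra+ fraction of the members rests on 4 promoters. Since the libraries of each mark were sequenced from populations and not from single cells, marks listed together may lie in different cells. H3K9me3 over the 3' exon was called in DP or Pdgfra+ but not Oct4+ cells for 18 members, of which 9 had an H3K27ac promoter in Oct4+ cells and 8 of those 9 had none in Pdgfra+ cells. Of all genes, 512 had that H3K9me3 pattern, of which 167 (32.6%) had an H3K27ac promoter in Oct4+ cells and 86 of those 167 (51.5%) had none in Pdgfra+ cells. The exception among the members was Zfp948, with a fully covered H3K27ac promoter in all libraries. Zfp942 and Zfp943, whose promoter windows overlap, were both among the 8.

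H3K4me1 and H3K27me3 were scarce at these genes. H3K4me1 was called over the gene window in 5 members in Oct4+ cells (7.94%, against 17.3% of all genes), in 5 in DP cells (7.94%, against 21%) and in none in Pdgfra+ cells (against 5.8%). With 1 library left out and a peak required in both others, the DP count was 1 (Zfp948) without replicate 2 or replicate 3, and the Oct4+ count was 3 without replicate 2 and 4 without replicate 1 or replicate 3. Zfp985 (7.14, 17.3 and 7.49% of the window) and Zfp984 (3.01, 4.23 and 3.34%) had H3K4me1 in the 3 Oct4+ libraries and in no other, a pattern of 1.15% of all genes. Zfp948 had the reverse, with 0% in Oct4+, 13.9, 22.1 and 22.3% in DP and 28.5% in Pdgfra+ replicate 3. Zfp936 had 3.4, 10.9 and 3.71% covered in Oct4+ libraries and 3.78% in DP replicate 2. For Zfp985 and Zfp984 the exact permutation p was 0.0357 and the adjusted p 0.500 over 7584 genes. Those were 2 of 12 members tested, against 7.75% of genes at an unadjusted p under 0.05, and limma called 0 members (2 at an unadjusted p under 0.05) and 0.501% of genes.

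H3K27me3 was called at the promoter of 1 member, Zfp956 on chromosome 6, in DP cells (1.59%, against 14.6% of all genes), and of none in Oct4+ (against 9.15%) or Pdgfra+ cells (against 5.39%). The call was thus lost without DP replicate 2 or DP replicate 3, since its promoter was fully covered in those and at 0% in the other 7 libraries (exact permutation p = 0.250, adjusted p = 0.667 over 3890 genes, of which 6.3% had an unadjusted p under 0.05 and limma called 4.81%, no member among them). The same 2 DP libraries had H3K4me1 over 88.5 and 96.5% of this promoter, and no H3K9me3 or promoter H3K27ac was listed there in any library. Zfp964 had an H3K27me3 promoter peak in Oct4+ replicate 3 alone. No H3K4me1 or H3K27me3 peak overlapped a member's 3' exon in any library, whereas 14.2% and 12.1% of all genes had one in at least 1 library.

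The members' chromosomal position went with large differences in listed peaks. Linking members less than 1 Mb apart gave 3 large clusters. The chromosome 2 cluster (chr2:175372436-178078476, Zfp968 to Zfp931) held 10 members, and no peak of any mark was listed over any of them in any of the 36 libraries. The chromosome 4 cluster (chr4:145510759-147848366, Zfp990 to Zfp933) held 16 members. H3K9me3 over the 3' exon was called there for 4, 7 and 7 members in Oct4+, DP and Pdgfra+ cells, H3K27ac at the promoter for 7, 1 and 0, and 4 members had no peak of any mark. The chromosome 17 cluster (chr17:21567008-22867134, Zfp948 to Zfp945) held 10 members, with H3K9me3 called for 0, 3 and 5 and H3K27ac for 4, 3 and 1. A smaller cluster on chromosome 7 held Zfp977, Zfp976, Zfp975 and Zfp936, and H3K9me3 was called there for 1, 3 and 2 members. Zfp934 and Zfp935 overlap on chromosome 13, so their gene-window values share peaks, though their 3' exons do not.

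In all, 17 of 63 members had no listed peak of any mark over the gene window, against 15.8% of all genes: the 10 of the chromosome 2 cluster, Zfp986, Zfp987, Zfp989 and Zfp993 on chromosome 4, Zfp974 and Zfp940 on chromosome 7, and Zfp952 on chromosome 17. H3K9me3 was listed nowhere in the gene window of 24 members (38.1%), against 65.8% of all genes, the first 12 by name being Zfp931, Zfp940, Zfp941, Zfp952, Zfp953, Zfp954, Zfp956, Zfp960, Zfp963, Zfp965, Zfp966 and Zfp967. Sequence repetition moved with the absence of peaks. The share of 32-base words of the 3' exon that occur more than once in the genome had a median of 98.8% in these 17 members and of 32.3% in the 46 others. In the chromosome 2 cluster the share ran from 65.8 to 100%, with a median of 100%. It had a median of 83.5% in the chromosome 4 cluster and of 15.8% in the chromosome 17 cluster. The treatment of reads with several possible places is not stated in the methods or labels read, and its part in the missing peaks was not tested.

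**Figure D5:**
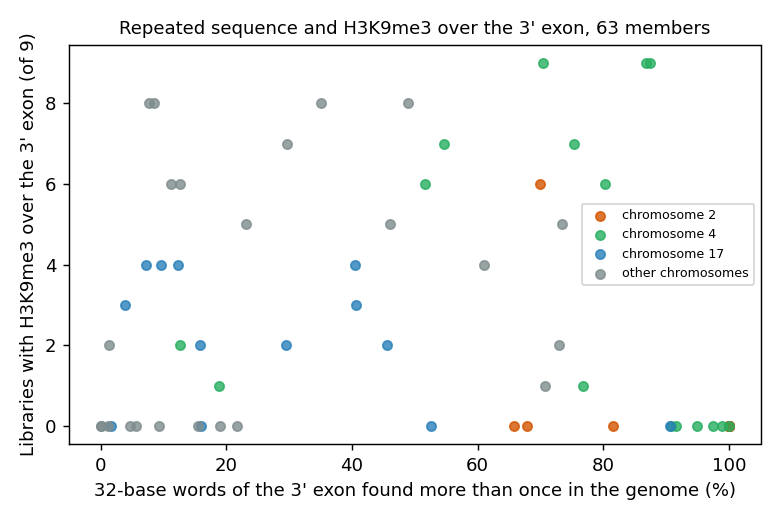
Each point is 1 of the 63 members, with the percent of 32-base words of its 3' exon found more than once in the genome on the horizontal axis and the number of the 9 libraries with H3K9me3 over that exon on the vertical axis, coloured by chromosome. The chromosome 2 cluster lies at 0 libraries and 65.8 to 100% (Zfp937, elsewhere on chromosome 2, at 6 libraries), while chromosome 4 members reach 9 libraries at over 50%.

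Repetition did not separate marked from unmarked members completely. Of 31 members with over 50% of words repeated, 13 had H3K9me3 over the 3' exon in at least 1 library, and it was called for 4, 10 and 9 in Oct4+, DP and Pdgfra+ cells. Of 32 members with at most 50%, 21 had it in at least 1 library, and it was called for 4, 12 and 15. The lower number in Oct4+ cells was present in both sets. Zfp992 and Zfp988, with 86.7 and 87.4% of words repeated, had H3K9me3 in all 9 libraries, whereas Zfp940, with 1.23%, and Zfp952, with 1.61%, had no peak of any mark. For H3K27ac at the promoter, the calls were 7, 2 and 0 in the more repeated set and 14, 10 and 4 in the less repeated one. The 31 members with promoter H3K27ac in at least 1 library had a median of 18 CG in the 1.1 kb promoter, against 10 in the other 32. The same sets differed in repeated words of the promoter, with medians of 27.6% and 83.7%. All 10 members of the chromosome 2 cluster were among the 32. The parts of CG content and repetition were not tested.

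Genes that write, read or erase H3K9me3 were read beside the members. The list held 24 such genes, among them Trim28, Setdb1, Suv39h1, Cbx5 and Atrx. H3K27ac was called at the promoter of 16 in Oct4+, 13 in DP and 9 in Pdgfra+ cells. The shares of all genes were 31.8%, 30.3% and 18.4%. Those not called at the promoter in Oct4+ cells were Setdb1, Kdm4c, Atf7ip, Trim28, Dnmt1, Pphln1, Ehmt2 and Atrx. Over the gene window, however, H3K27ac was called at all 24 genes in Oct4+, 16 in DP and 13 in Pdgfra+ cells. The shares of all genes over that window were 52.5%, 37.3% and 23.9%. H3K9me3 was called at the promoter of none of the 24. Each Pdgfra+ H3K27ac list was shorter than each Oct4+ list, and its part in these counts was not tested. By the exact permutation test on promoter H3K27ac, 0 of these genes passed an adjusted p of 0.05. Morc3, a silencing factor at retrotransposons, had the smallest p of the list (0.0107, adjusted p = 0.825), with means of 87.7, 12.7 and 45.7% of the promoter covered in Oct4+, DP and Pdgfra+ cells. Cbx1, which encodes a reader of H3K9me3, had means of 79.8, 23.1 and 0% (exact permutation p = 0.0714, adjusted p = 0.825).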

How the data were processed

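Peak lists deposited by the authors were analysed, 1 for each CUT&Tag library. In CUT&Tag a transposase, brought to a mark by its antibody, cuts and tags the DNA there. The authors called peaks with SEACR (stringent) against IgG on BEDtools coverage. Per the labels, processing also used bcl2fastq 2.19.1, Bowtie2, SAMtools 1.12, deepTools and bedtools 2.26.0 with mm10. The deposited values are the total and highest signal of each interval, in fragment coverage not scaled to depth. Depth is unknown, so no interval for counting error is given. The 3 IgG samples were not used here.

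Windows came from GENCODE vM21: the gene body and 2 kb either side, the promoter, and the last exon of the transcript with the longest coding sequence. The value was the percent of window bases under peaks (Python 3.11.15, NumPy 2.4.6, pandas 2.3.3, SciPy 1.17.1, with 1 list checked against bedtools 2.31.1). For each gene, the F statistic between populations was set against all 1680 assignments of libraries (exact permutation test, smallest p 0.00357), with Benjamini-Hochberg adjustment over all protein-coding genes with a peak in at least 2 of 9 libraries and a threshold of 0.05. limma 3.58.1 (R 4.3.3) was the alternative, and others were equal numbers of peaks, the top 50% of peaks, all genes tested, other windows and overlaps, the replicate block and each library left out. The tests were tried on simulated data first. Of 200 genes changed in 1 population alone, the exact test called 0% after adjustment in each comparison, and limma called 100%. Among the genes left unchanged, limma called 0.513 to 3.1%, depending on the comparison. Of 100 genes with a graded change, 100% had the smallest p in each comparison. After adjustment, the exact test called 100% of them for both H3K9me3 comparisons and 0% for the others. Repeated words were 32 bases long. Figures were drawn with Matplotlib 3.10.9.

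Members named were those with H3K9me3 over the 3' exon in most libraries (at most 10), those with the smallest p in each comparison (8 for H3K9me3 over the 3' exon, 5 elsewhere), those without H3K9me3 in the gene window (12), those with promoter H3K9me3 or H3K27me3, and Zfp932, Zfp961 and Zfp982. Other members, named for the set, cluster or pair of marks they belong to, were picked after their values were seen. The members, lists and tests were chosen with earlier results of these data known.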

Additional observations from a re-analysis of the deposited data

How the results depend on the processing

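By the exact test no member passed an adjusted p of 0.05 in any of the 5 comparisons, under every alternative setting that kept this test. In the simulated data this test called 0% of genes changed in 1 population alone after adjustment, in every comparison. Its lack of calls therefore cannot show that a member with such a pattern did not change. limma called 4 members for H3K9me3 over the 3' exon and 1 at the promoter, and 0 in the other 3 comparisons. The counts of called members moved more. H3K9me3 over the 3' exon in Oct4+ cells (8) became 5 with equal numbers of peaks, 4 with a peak required in all 3 libraries and 4 to 7 with 1 library left out. In Pdgfra+ cells (24) it became 15 with a peak in all 3 libraries and 15 to 23 with 1 library left out, and in DP cells (22) it was 19 to 21. H3K27ac at the promoter in Oct4+ cells (21) became 3 with equal numbers, 10 with all 3 libraries and 10 to 21 with 1 left out. In DP cells (12) it became 2 with equal numbers, 4 with the top 50% of peaks, 20 with at least 1 library, 3 with all 3 and 3 to 12 with 1 left out. In Pdgfra+ cells (4) it became 2, 2, 7 and 2 under the same settings and 2 to 4 with 1 left out. Each smaller count with fewer peaks or stricter agreement follows from the setting itself. The start of the representative transcript, an alternative chosen after seeing the data, gave 22, 12 and 4. Leaving out 1 library for the smaller counts was likewise chosen after seeing the data. It gave 3 to 4 for H3K4me1 in Oct4+ cells (5) and 1 to 5 in DP cells (5), 0 to 1 for H3K27me3 in DP cells (1), and 0 to 1 for promoter H3K9me3 in Pdgfra+ cells (1). For the named members, the gap of DP and Pdgfra+ over Oct4+ in promoter H3K9me3 changed sign for Zfp988 (11.1, and -2.03 to 21.6 percentage points with 1 library left out, the lowest without Pdgfra+ replicate 1) and Zfp985 (-4.59, and -9.87 to 5.28, the highest without Oct4+ replicate 1), and the cause was not tested. Correlations between samples that share a replicate number were -0.126 to 0.0538 for H3K9me3 over the 3' exon, and -0.406 to 0.451 for H3K4me1, where the replicate 1 libraries did deviate together (0.251 to 0.451). In no comparison was every pair over 0.1, so the numbers were not taken as pairs. With the replicate block (6 orders of libraries within each number, smallest p 0.0278) 0 members were called in each of the 5 comparisons, and 0 had an unadjusted p under 0.05. A smallest p this high, raised further by tied values, leaves little room for any call after adjustment. The block therefore cannot show that members did not change. Depth is unknown, and short lists limit what a missing peak can show.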
